A study of Mus musculus with 6 samples.

Results

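The tissue inhibitors of metalloproteases (*Timp1* to *Timp4*) and 6 proteases of the ADAMTS family (*Adamts1*, *Adamts2*, *Adamts4*, *Adamts5*, *Adamts9* and *Adamts12*) were examined in the chronic stroke infarct. These 10 genes were taken by symbol from the 46078 genes counted, and all 10 passed the filter on low counts that left 15554 genes to test. TIMPs are secreted proteins that bind to the active site of metalloproteases and block it. ADAMTS proteases are secreted zinc enzymes with thrombospondin motifs. Some of them cut the large proteoglycans of the brain's extracellular matrix, and others trim procollagens so that collagen fibrils can form. Both families are known for their part in the turnover of matrix in scars.

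RNA was sequenced from 3 infarcts and 3 contralateral cortices of wild type C57BL/6J mice, 3 months of age, at 7 weeks after stroke. Per the methods of the study, stroke was made by permanent cautery of the distal middle cerebral artery combined with hypoxia. The labels name no drug treatment for these libraries and do not say whether an infarct and a cortex came from the same animal. They do not state that the replicates were separate animals, so *p* values measure the spread between these samples. CPM below are counts scaled to the library's size. Counts assigned to genes were 12146959, 12507336 and 13427057 in infarcts 1 to 3 and 19933962, 16610299 and 11943570 in contralateral cortices 1 to 3. The infarct libraries correlated with each other at r of 0.957 to 0.973 across genes and the contralateral libraries at 0.985 to 0.988, against 0.666 to 0.784 between regions.

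Infarcts had more RNA of both families than contralateral cortex. Of the 10 genes, 9 were upregulated and 0 were downregulated by edgeR, with calls made where the adjusted *p* was below 0.05 and the change exceeded 2 times in either direction. *Timp4* was the gene that did not pass, and at an unadjusted *p* under 0.05 the number of downregulated members was also 0, as it was with DESeq2 and limma voom. The infarct changed broadly by the same rule, with 25.7% of all tested genes upregulated and 20.9% downregulated. These shares are the background for the counts of each gene list below. For the same 9 members every infarct library lay above every contralateral library, as it did for 37.6% of all tested genes. The median log2 fold change was 3.01 over the 10 members and 0.03 over all tested genes. The members were chosen with earlier results of these data known, so their contrast with all tested genes is only a description. In bulk tissue, a change in the number of cells of a type and a change in RNA per cell cannot be told apart. Scaling by library totals alone moved the median over all tested genes by 0.203 on the log2 scale, and changed the call of 0 members.

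**Figure D1:**
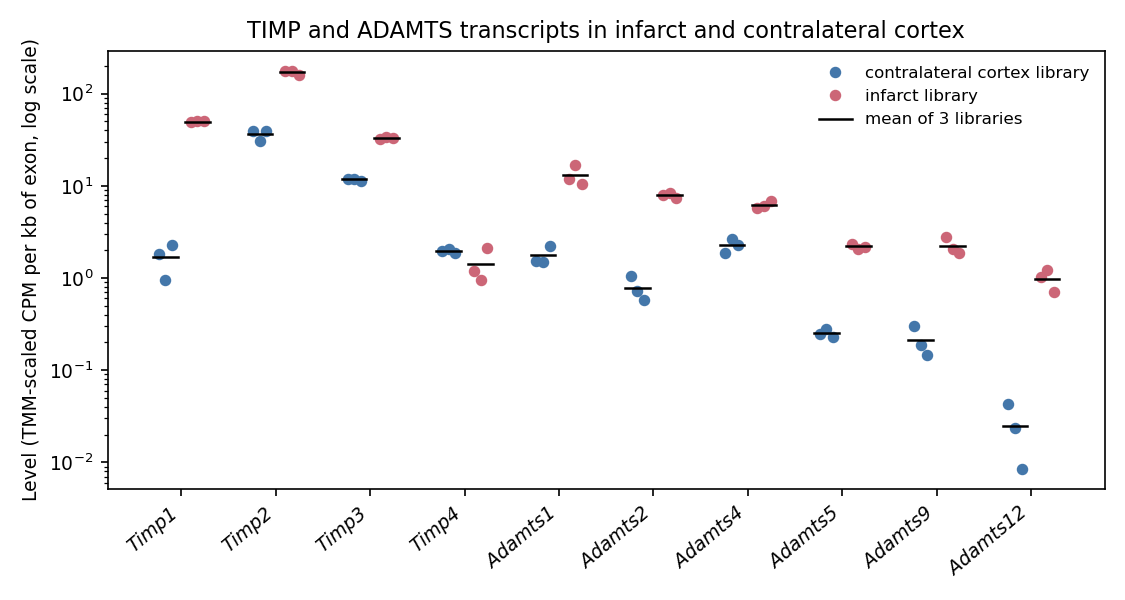
Level of each TIMP and ADAMTS member in every library, as scaled CPM per kb of exon on a log axis, with blue points for the 3 contralateral cortices, red points for the 3 infarcts and a black line for their mean. The regions are apart for 9 genes and overlap for *Timp4*.

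*Timp1*, the inhibitor known to be induced in injured and inflamed tissue, had the largest change among the TIMPs. It had 547, 605 and 652 counts in infarcts 1 to 3 and 31, 13 and 22 counts in contralateral cortices 1 to 3. Each infarct thus held many more *Timp1* reads than any cortex, although contralateral cortex 1 was sequenced most deeply. The fold change was 29.8 (log2 4.90 ± 0.27 SE, 95% interval 4.28 to 5.51, edgeR adjusted *p* = 5.13e-07), in 3 of 3 infarcts.

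*Timp2*, which also takes part in the activation of pro-MMP2 at the cell surface, was the most abundant TIMP in both regions. It had 8699, 9413 and 9126 counts in infarcts 1 to 3 and 2965, 1817 and 1663 counts in contralateral cortices 1 to 3. The infarcts were close to each other and apart from all cortices. The fold change was 4.70 (log2 2.23 ± 0.17 SE, edgeR adjusted *p* = 3.04e-06).

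*Timp3* binds to the matrix and is the TIMP known to inhibit ADAMTS proteases and ADAM17 most broadly. It had 3318, 3790 and 3901 counts in infarcts 1 to 3 and 1875, 1480 and 1003 counts in contralateral cortices 1 to 3. In scaled CPM, these were 264, 278 and 266 in the infarcts and 97.9, 96.4 and 92.6 in the cortices, so the spread within each region was small beside the difference. The fold change was 2.82 (log2 1.5 ± 0.13 SE, edgeR adjusted *p* = 7.43e-06).

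*Timp4*, the TIMP with the most restricted tissue range and known from brain and heart, differed from the others in having no call. It had 89, 77 and 183 counts in infarcts 1 to 3 and 223, 187 and 118 counts in contralateral cortices 1 to 3. In scaled CPM, these were 7.09, 5.65 and 12.5 in the infarcts and 11.6, 12.2 and 10.9 in the cortices. Infarct 3 exceeded all cortices and the other infarcts were below them, so the regions overlapped. The log2 fold change was −0.46 ± 0.28 SE (95% interval −1.09 to 0.18, edgeR adjusted *p* = 0.182), an interval that reaches from below −1 to above 0. This value hung on infarct 3, without which the log2 fold change was −0.85 (edgeR adjusted *p* = 0.00822), past the threshold on *p* but not the one on fold change. Over the other alternatives the adjusted *p* was not below 0.05.

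The ADAMTS members were upregulated in 6 of 6 cases, with a median log2 fold change of 3.22, and the TIMPs in 3 of 4, with a median of 1.86. *Adamts1*, a protease that cuts versican and aggrecan, had 786, 1218 and 808 counts in infarcts 1 to 3 and 157, 122 and 128 counts in contralateral cortices 1 to 3. Infarct 2 was the highest, and all infarcts were above all cortices. The fold change was 7.45 (log2 2.90 ± 0.24 SE, edgeR adjusted *p* = 5.87e-06). *Adamts4*, known as aggrecanase-1, had 345, 394 and 484 counts in the infarcts and 174, 194 and 120 counts in the cortices. Its fold change of 2.73 was the smallest of the ADAMTS members (log2 1.45 ± 0.18 SE, edgeR adjusted *p* = 8.62e-05). *Adamts5*, known as aggrecanase-2, had 321, 303 and 343 counts in the infarcts and 51, 46 and 27 counts in the cortices. Its fold change was 8.69 (log2 3.12 ± 0.19 SE, edgeR adjusted *p* = 8.51e-07), and its 95% interval of 2.69 to 3.55 on the log2 scale lay above the interval of 1.04 to 1.86 for *Adamts4*. The difference between these genes was not itself tested.

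*Adamts9*, a protease of versican, had 523, 423 and 408 counts in infarcts 1 to 3 and 88, 44 and 24 counts in contralateral cortices 1 to 3. The regions did not overlap, and the fold change was 10.1 (log2 3.34 ± 0.29 SE, edgeR adjusted *p* = 6.99e-06). *Adamts2*, which removes the amino-terminal propeptide of fibrillar procollagens, had 940, 1057 and 1002 counts in the infarcts and 186, 105 and 59 counts in the cortices. The infarcts were alike in level, and the fold change was 9.93 (log2 3.31 ± 0.22 SE, edgeR adjusted *p* = 1.45e-06). *Adamts12*, known to degrade cartilage oligomeric matrix protein, had 141, 181 and 112 counts in the infarcts and 9, 4 and 1 counts in the cortices. It was barely detected in contralateral cortex, and its fold change was 34.6 (log2 5.11 ± 0.43 SE, edgeR adjusted *p* = 5.84e-06). Without contralateral cortex 1, which held most of its cortical reads, the log2 fold change of *Adamts12* was 5.75.

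Levels were compared between genes as CPM per kb of exon. In the infarct the order was *Timp2* (172 ± 10.3 SD, n = 3), *Timp1* (49.7 ± 0.582), *Timp3* (33.1 ± 0.932), *Adamts1* (13 ± 3.40), *Adamts2* (7.89 ± 0.508) and *Adamts4* (6.20 ± 0.599). These 6 were followed by *Adamts9* (2.23 ± 0.480), *Adamts5* (2.20 ± 0.156), *Timp4* (1.43 ± 0.612) and *Adamts12* (0.982 ± 0.262), each of which overlapped the next between libraries. In contralateral cortex *Timp2* (36.5 ± 5.32) and *Timp3* (11.7 ± 0.339) led. *Adamts4* (2.27 ± 0.369), *Timp4* (1.96 ± 0.110), *Adamts1* (1.76 ± 0.408), *Timp1* (1.69 ± 0.677) and *Adamts2* (0.785 ± 0.233) came next, and neighbors among these 5 overlapped. *Adamts5* (0.252 ± 0.0237) and *Adamts9* (0.214 ± 0.0818) overlapped each other and lay above *Adamts12* (0.0251 ± 0.0173). *Timp1* thus stood beside *Timp4* in contralateral cortex, and in the infarct it was close to *Timp3* in an order that depends on the length used. With the longest transcript of each gene in place of merged exons, an alternative planned for the share of *Timp1* and extended to the other levels after seeing the data, *Timp3* (57.1 ± 1.61) was above *Timp1* (50 ± 0.585) in infarcts. By that length *Adamts9* (4.18 ± 0.902) no longer overlapped *Adamts5* in infarcts, and the order of these genes turned in cortices, where they still overlapped.

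The makeup of the TIMP transcripts differed between regions. Summed over the 4 genes, the TIMP level was 261, 263 and 245 CPM per kb in infarcts 1 to 3 and 55.6, 45.2 and 54.9 CPM per kb in contralateral cortices 1 to 3, a ratio of means of 4.93. *Timp1* made up 19.5% ± 0.890 (SD, n = 3) of this sum in infarcts and 3.18% ± 1.03 in cortices. *Timp3* made up 12.9% ± 0.455 in infarcts and 22.8% ± 2.92 in cortices, and *Timp4* 0.564% ± 0.265 and 3.83% ± 0.647. These shares did not overlap between regions, whereas the share of *Timp2*, at 67.0% ± 1.54 in infarcts and 70.1% ± 2.59 in cortices, did. By the longest transcript the means of *Timp2* turned (62.4% in infarcts and 61.2% in cortices) and still overlapped. An exact permutation test of 3 against 3 libraries cannot give a two-sided *p* below 0.1, so the shares are given without a test. The share of *Timp1* rests on gene length, and by CPM alone it was 4.46% in infarcts and 0.588% in cortices.

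**Figure D2:**
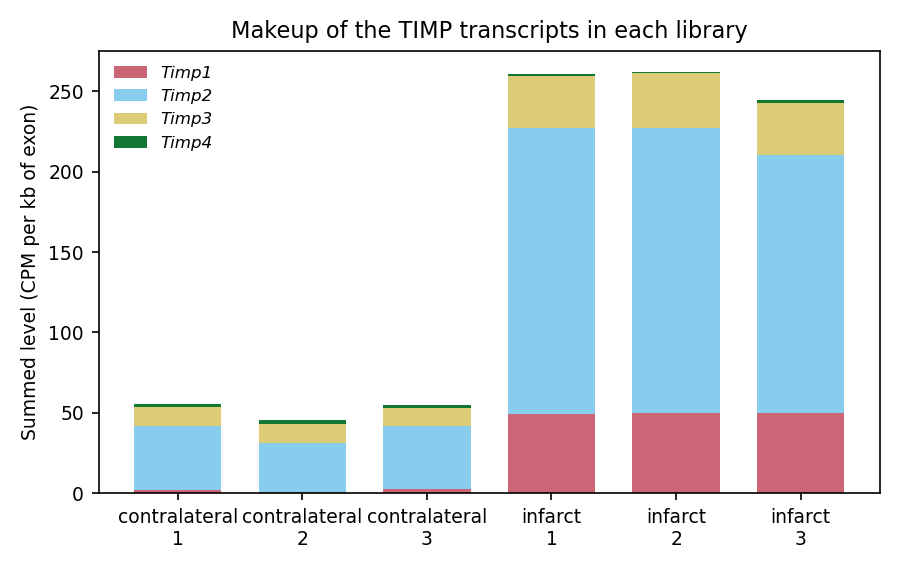
Summed TIMP level in each library, as scaled CPM per kb of exon, with each bar divided into *Timp1*, *Timp2*, *Timp3* and *Timp4*. *Timp1* takes 18.8% to 20.5% of the bar in infarcts and 2.11% to 4.17% in cortices.

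The family of ADAMTS proteases did not move as a block. Of the other 13 ADAMTS genes 12 could be tested. Of these, 5 were upregulated, 4 were downregulated and 3 were not called, with a median log2 fold change of −0.26. By the same rule 25.7% of all tested genes were upregulated and 20.9% downregulated. *Adamts15*, another protease of versican and aggrecan, had 1113, 1500 and 913 counts in infarcts 1 to 3 and 157, 86 and 84 counts in contralateral cortices 1 to 3. Its log2 fold change was 3.60 ± 0.26 SE (edgeR adjusted *p* = 2.04e-06), and in infarcts its libraries overlapped those of *Adamts1* in CPM per kb. Its mean was below that of *Adamts1* by merged exons and above it by the longest transcript (14.7 ± 4.04 against 14.1 ± 3.69). *Adamts14*, a procollagen protease related to *Adamts2*, was upregulated by 3.43 on the log2 scale, from 5, 1 and 5 counts in the cortices, and *Adamts10*, which binds to fibrillin, by 1.57. *Adamts7* had at most 3 counts in any cortex, and the ratio of its pooled scaled counts was 26.7 (95% counting interval 12.0 to 73.8). *Adamts6* was upregulated by 1.19 on the log2 scale, a call that was lost without infarct 2 (0.97), contralateral cortex 2 (1.06) or contralateral cortex 3 (0.93).

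The downregulated genes were *Adamts18* (log2 fold change −2.95 ± 0.75 SE), *Adamts13* (−2.25 ± 0.69), which cleaves von Willebrand factor, *Adamts3* (−1.51 ± 0.33), a procollagen protease that also processes VEGF-C and reelin, and *Adamts16* (−1.35 ± 0.39). *Adamts18* had 0, 2 and 10 counts in infarcts 1 to 3 and 59, 35 and 15 counts in contralateral cortices 1 to 3, and its log2 fold change was −4.75 without infarct 3. *Adamts13* was at −2.86 without infarct 2, and its call was lost without contralateral cortex 3 (−1.98). The calls of *Adamts3*, *Adamts6*, *Adamts13* and *Adamts16* were lost when the fold change itself was tested against 2. *Adamts17* (−0.91), *Adamts8* (−0.77) and *Adamts20* (0.25) were not called, but *Adamts17* was downregulated without contralateral cortex 1 (−1.11). *Adamts19* had too few counts to test. Over all 19 ADAMTS genes, 11 of 18 tested were upregulated and 4 downregulated.

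**Figure D3:**
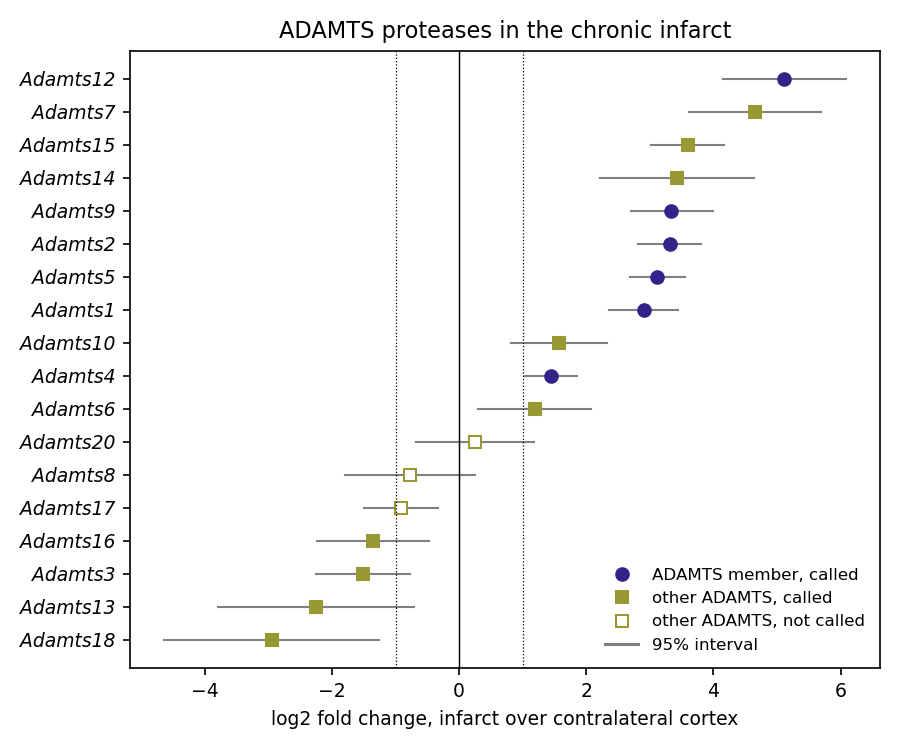
Log2 fold change of the 18 tested ADAMTS proteases, infarct over contralateral cortex, with 95% intervals as horizontal lines and dotted lines at the threshold. The 6 members are circles and lie between 1.45 and 5.11, while the other ADAMTS proteases, drawn as squares, run from −2.95 to 4.65.

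The shares that the proteases took of the ADAMTS total were also compared. Summed over 19 genes, the ADAMTS level was 45.1, 55.6 and 44.1 CPM per kb in infarcts 1 to 3 and 13, 13.5 and 12.4 CPM per kb in contralateral cortices 1 to 3, a ratio of means of 3.72. In cortices *Adamts4* held 17.5% ± 2.60 (SD, n = 3) of this level, *Adamts3* 14.1% ± 2.06, *Adamts1* 13.6% ± 3.73 and *Adamts20* 13.2% ± 2.61. In infarcts *Adamts1* held 26.7% ± 3.40, *Adamts15* 17.2% ± 3.12, *Adamts2* 16.5% ± 1.43 and *Adamts4* 13% ± 2.40, and *Adamts3* held 1.36% ± 0.751. By the longest transcript *Adamts3* came before *Adamts4* (15% and 14.9%) and *Adamts20* before *Adamts1* (13.3% and 11.5%) in cortices, and *Adamts15* before *Adamts1* in infarcts (22.8% and 22%). The ratio of *Adamts4* to *Adamts1* was 0.484, 0.357 and 0.660 in infarcts 1 to 3 and 1.22, 1.75 and 1.03 in contralateral cortices 1 to 3, without overlap.

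ADAMTS-like proteins share the ancillary domains of ADAMTS proteases but have no catalytic domain. Of 6 tested, 5 were upregulated and 1, *Adamtsl2*, was downregulated (log2 fold change −1.68). This call and that of *Adamtsl5*, which was upregulated (1.32), were lost when the fold change was tested against 2. *Adamtsl3* had the smallest *p* in the list (log2 fold change 3.23 ± 0.18 SE, edgeR adjusted *p* = 5.14e-07), and *Thsd4*, which promotes fibrillin microfibrils, was upregulated by 2.74 on the log2 scale.

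The matrix metalloproteases (MMPs), the classical targets of TIMPs, were upregulated in 11 of 16 tested cases and downregulated in 2. *Mmp2*, a gelatinase, was upregulated by 5.98 ± 0.18 SE on the log2 scale (edgeR adjusted *p* = 1.46e-07), *Mmp19* by 6.62 and *Mmp14*, the membrane-bound activator of pro-MMP2, by 4.63. *Mmp3*, *Mmp12* and *Mmp13* had log2 fold changes of 10.60, 10.84 and 10.68, against 11 counts of each in contralateral cortex 3 and at most 12 in any cortex. These folds rest on few cortical reads. Without contralateral cortex 3 they were 13.53 for *Mmp3* and 12.34 for *Mmp12*, and without contralateral cortex 1 they were 9.82 for *Mmp3*, 10.16 for *Mmp12* and 9.94 for *Mmp13*. *Mmp17* (−2.63) and *Mmp24* (−2.45), which are membrane-bound MMPs, were downregulated, and *Mmp24* was at −3.18 without infarct 3. *Mmp28* lay at the threshold (0.99) and was called in several alternatives. The summed MMP level was 889 ± 79.6 CPM per kb (SD, n = 3) in infarcts and 40.7 ± 1.31 in cortices, a ratio of 21.8. *Mmp3*, *Mmp12* and *Mmp13* held 75% ± 1.45 of it in infarcts and 1.16% ± 1.31 in cortices. Without these 3 genes, a comparison made after their values were seen, it was 222 ± 18.8 CPM per kb in infarcts and 40.2 ± 0.84 in cortices, a ratio of 5.52.

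The TIMP level stood in a different proportion to each class of protease. The ratio of the summed TIMP level to the summed MMP level was 0.32, 0.27 and 0.278 in infarcts 1 to 3 and 1.42, 1.10 and 1.31 in contralateral cortices 1 to 3. The regions did not overlap in this ratio, which by merged exons rested on *Mmp3*, *Mmp12* and *Mmp13*. Without them, a comparison made after their values were seen, the ratio was 1.21, 1.08 and 1.18 in infarcts and 1.42, 1.11 and 1.35 in cortices, and the regions overlapped. By the longest transcript it was 0.957, 0.827 and 0.925 in infarcts and 1.32, 1.1 and 1.25 in cortices without these genes, where the regions did not overlap. The ratio of the TIMP level to the level of all 19 ADAMTS proteases was 5.35 ± 0.557 (SD, n = 3) in infarcts and 4.02 ± 0.580 in cortices, without overlap. By the longest transcript it was 4.9, 4.03 and 4.8 in infarcts and 3.86, 3.19 and 4.14 in cortices, and the regions overlapped. Against the 6 ADAMTS members alone, by merged exons, the ratio was 8.22, 7.19 and 8.35 in infarcts and 11.0, 8.45 and 9.98 in cortices, without overlap and in the opposite direction. These are ratios of RNA levels and carry no measure of protein or activity.

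ADAM sheddases, several of which *Timp3* inhibits, were upregulated in 6 of 8 cases, among them *Adam8* (log2 fold change 5.90), *Adam12* (4.38) and *Adam17* (2.94), the enzyme that releases tumor necrosis factor. *Adam10* was upregulated by 1.01 on the log2 scale. It fell under the threshold with upper quartile scaling (0.99) and without infarct 1 (0.99), infarct 2 (0.98), contralateral cortex 1 (0.97) or contralateral cortex 3 (0.99). Of 5 other inhibitors or modulators tested, 4 were upregulated. *A2m*, a protease-trapping plasma protein, was upregulated by 7.24 ± 0.34 SE on the log2 scale (edgeR adjusted *p* = 3.57e-07), and *Pcolce*, an enhancer of procollagen C-proteinase, by 4.20. *Tfpi2* had 2 reads in the 3 cortices together, both in contralateral cortex 1, and the ratio of its pooled scaled counts was 140 (95% counting interval 38.5 to 1166.4). *Reck*, a membrane-anchored MMP inhibitor, was upregulated by 1.09 on the log2 scale, a call lost without contralateral cortex 3 (0.93).

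Substrates and their partners were examined next. The lecticans, which are proteoglycans cut by *Adamts1*, *Adamts4* and *Adamts5*, and the link proteins, which hold lecticans to hyaluronan, were upregulated in 1 of 7 tested cases and downregulated in 3. *Acan* was upregulated (log2 fold change 1.61), while *Ncan* (−1.86), *Hapln1* (−1.36) and *Hapln4* (−2.96) were downregulated. *Vcan* (0.82), *Bcan* (−0.49) and *Hapln2* (0.06) were not called, but *Vcan* was upregulated with scaling by library totals (1.02). The fibrillar procollagens on which *Adamts2* acts were upregulated in 5 of 5 tested cases, with *Col3a1* (7.35), *Col1a1* (6.73) and *Col1a2* (6.45) foremost. Of 13 genes for activation, cofactors and clearance 12 were upregulated, including *Furin*, which removes ADAMTS propeptides (1.60), *Fbln1*, a cofactor of *Adamts1* (5.34), and *Lrp1*, the endocytic receptor for *Timp3* and *Adamts5* (1.72). *Lrp1b* was downregulated (−1.53). The call of *Pcsk6* (1.12) was lost without infarct 3 (0.99) and without contralateral cortex 2 (0.92).

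Markers of cell types also differed between the regions, and their part in the results above was not tested. Of 10 neuron markers 10 were downregulated, and their summed level was 846, 1172.8 and 2421.8 CPM in infarcts 1 to 3 and 11815.0, 11888.2 and 12393.4 CPM in contralateral cortices 1 to 3, with *Camk2a* the most abundant by mean in infarcts and *Syt1* in cortices. The lead of *Camk2a* rested on infarct 3, and *Syt1* was above it in infarct 1 (229 against 219 CPM) and infarct 2 (326 against 245 CPM). Of 8 astrocyte markers 2 were upregulated, 1 was downregulated and 5 were not called. Their sum was 5167.3, 5532.4 and 7690.9 CPM in infarcts 1 to 3 and 13637.2, 14440.5 and 13565.3 CPM in contralateral cortices 1 to 3, with *Slc1a2* the most abundant in both regions. The direction of this sum rested on *Slc1a2*. Without it, a comparison made after its values were seen, the sum was 2791.3, 3032.1 and 3769.1 CPM in infarcts and 1531.3, 1446.1 and 1773.5 CPM in cortices. That sum in turn rested on *Gfap* and *Aqp4*, and without these too it was 1002.3, 1038.7 and 1215.2 CPM in infarcts and 1172.4, 1088.7 and 1404.7 CPM in cortices, with overlap. Infarct 3, which had the highest *Timp4* of the infarcts, also had the highest neuron, astrocyte and oligodendrocyte sums among them. Infarct 1 had more *Timp4* than infarct 2 (7.09 against 5.65 CPM) but lower sums of these markers.

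Markers of fibroblasts and leptomeninges were upregulated in 8 of 8 cases, with sums of 5904.7, 5336.1 and 4751.1 CPM in infarcts 1 to 3 and 181, 153 and 190 CPM in contralateral cortices 1 to 3, led by *Col1a2* in infarcts and *Pdgfra* in cortices. Microglia and macrophage markers were upregulated in 8 of 8 cases, with sums of 1852.0, 1535.6 and 1469.6 CPM in infarcts and 264, 218 and 295 CPM in cortices, led by *Csf1r*. Pericyte and smooth muscle markers were upregulated in 5 of 7 tested cases, with sums of 729, 534 and 501 CPM and 252, 233 and 277 CPM, led by *Rgs5*. Endothelial markers were upregulated in 3 of 6 cases, with sums of 480, 385 and 333 CPM and 219, 242 and 238 CPM, led by mean by *Cdh5* in infarcts and *Flt1* in cortices. In infarct 3 *Flt1* was above *Cdh5* (93.5 against 85.2 CPM).

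Oligodendrocyte markers were upregulated in 3 of 6 cases, with sums of 4103.0, 4727.2 and 6691.5 CPM in infarcts 1 to 3 and 2200.1, 2131.4 and 2538.0 CPM in contralateral cortices 1 to 3. Precursor markers were upregulated in 1 of 4 cases, *Pdgfra*, which is also on the fibroblast list, with sums of 530, 399 and 356 CPM and 161, 137 and 154 CPM. Without *Pdgfra*, also a comparison made after its values were seen, the sums were 33.4, 44.1 and 58.1 CPM in infarcts and 49.9, 41.6 and 52.8 CPM in cortices and overlapped. T cell markers summed to 73.8, 30 and 18.4 CPM in infarcts and to at most 0.522 CPM in a cortex. *Cd4* was the most abundant of them by mean, but *Cd8a* was above it in infarct 2 (11.2 against 7.34 CPM). B and plasma cell markers, led by *Jchain*, summed to 2090.9, 760 and 191 CPM in infarcts and to at most 3.51 CPM in a cortex. Both lists were upregulated in 4 of 4 cases, with *Cd8a* of the T cell list at 0 counts in cortices. Choroid plexus markers were upregulated in 2 of 3 tested cases, led by *Aqp1* in infarcts and *Kl* in cortices, with sums of 44.8, 35.8 and 40.4 CPM and 6.48, 6.71 and 6.83 CPM. *Ttr* had 0, 3 and 3 counts in infarcts 1 to 3 and 0 in cortices, too few to test. Of the 4 skeletal muscle markers only *Acta1* had enough counts to test, and it was downregulated. The sums of this list, 0.319, 1.84 and 1.09 CPM in infarcts and 11.1, 9.12 and 11.7 CPM in cortices, were nearly all *Acta1* in cortices, and *Ckm* and *Myh4* had at most 3 counts in any library. *Tnnt3* had 1, 14 and 7 counts in infarcts and 2, 0 and 1 in cortices.

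The genes most like each TIMP over the 6 libraries were found by Pearson correlation of log2 CPM among 15438 genes. They were *Sh3tc1*, *Wdr91* and *Dhx34* for *Timp1* (r = 0.9997 to 0.9996) and *Slco2b1*, *C1qa* and *Serpinb6a* for *Timp2* (0.9997 to 0.9995). For *Timp3* they were *Wdr81*, *Plscr4* and *Chst11* (0.9999 to 0.9998). The points are the same 6 libraries in each case, and the regions were far apart for these genes. For *Timp4* they were *Znhit6* (r = 0.9959), *Pop4* (0.9928) and *Lct* (0.9873), of which 0 were called.

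On GRCm38, 3 of the TIMP genes lie inside synapsin genes on the opposite strand. *Timp1* is at chrX:20870166-20874735 on the plus strand within *Syn1*, *Timp3* at chr10:86300372-86349506 on the plus strand within *Syn3*, and *Timp4* at chr6:115241892-115252205 on the minus strand within *Syn2*. *Syn1* (log2 fold change −2.86 ± 0.29 SE), *Syn2* (−2.44 ± 0.50) and *Syn3* (−2.23 ± 0.26) were downregulated in infarcts. *Timp1* shares 0% of its exon bases with its host, *Timp4* 1.53% and *Timp3* 21.28%. The libraries were stranded, but the strand setting of the counting is not given in the sources used here. For which of the genes, if any, reads over shared exons were counted is thus not known. The ratio of *Timp3* to *Syn3* counts was 158, 131 and 92.9 in infarcts 1 to 3 and 8.60, 9.37 and 9.37 in contralateral cortices 1 to 3, so *Syn3* was the smaller in every library. For *Timp4* to *Syn2* it was 0.241, 0.0615 and 0.0946 in the infarcts and 0.0222, 0.031 and 0.0239 in the cortices. *Syn2* was thus the larger in every library. *Timp2*, at chr11:118301069-118355740 on the minus strand, contains *Cep295nl* on its own strand, which had at most 3 counts in any library.

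*Adamts1* (chr16:85793827-85803113) and *Adamts5* (chr16:85856173-85901828) are neighbors on the minus strand, 53059 bases apart, and both were upregulated. *Adamts15* and *Adamts8* are 20109 bases apart on chromosome 9, where *Adamts15* was upregulated and *Adamts8* was not called. *Adamts9* shares 11.99% of its exon bases with genes on the other strand, *A730049H05Rik* and *Gm15737*, which had at most 10 counts in any library. *Adamts2* lies at chr11:50602084-50807573 on the plus strand, *Adamts12* at chr15:11064790-11349231 on the plus strand, *Adamts4* at chr1:171250421-171260637 on the plus strand and *Adamts9* at chr6:92772699-92943492 on the minus strand.

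Promoters of 8 of the 10 members were found in RefSeq (GRCm38.p6), and were searched on both strands from 250 bases before to 50 bases after the start. TGANTCA, the AP-1 consensus, was in 0 of 8 and in 7.81% of all 32851 promoters. The ETS core AGGAAG was in 4 of 8 and in 35.4% of all promoters. The GC box motif GGGCGG was in 6 of 8 and in 35.7% of all. The motif TATAAA, where the basal transcription machinery can bind, was in 1 of 8, *Adamts1* at base −32, and in 13.6% of all. TGAGTAA, an AP-1 variant that was included because it is known from the *Timp1* promoter, was in 1 of 8, *Timp1* itself, and in 2.68% of all. The search at first ended 30 bases after the start, where TGAGTAA was in 0 of 8 and in 2.47% of all, and it was widened to 50 bases after the site in *Timp1*, which begins at base 27 after the start, was seen to lie across that end. The match in *Timp1* thus depends on a window and a motif that were both chosen with this gene in view. For the other motifs, the number of members with a match was the same in the shorter window. A match describes letters in the sequence and not binding.

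Sequences are shown for *Timp1*, which had the largest change of the TIMPs, for *Timp4*, which had no call, and for *Adamts1*, the ADAMTS member with the highest level in infarcts by either length. Each is the 250 bases before the start, 5′ to 3′ on the strand of the gene, with matches to the motifs on either strand in capitals. They lie at chrX:20869916-20870165 (plus strand), chr6:115252206-115252455 (minus strand) and chr16:85803114-85803363 (minus strand). The last 30 bases of the *Timp1* window, at chrX:20870186-20870215, hold TGAGTAA and AGGAAG.
Timp1: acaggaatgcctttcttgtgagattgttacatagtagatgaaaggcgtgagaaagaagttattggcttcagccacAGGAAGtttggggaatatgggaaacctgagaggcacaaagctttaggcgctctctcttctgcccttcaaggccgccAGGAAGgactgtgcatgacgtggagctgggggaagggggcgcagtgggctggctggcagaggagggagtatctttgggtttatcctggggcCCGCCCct
Timp1, bases 21 to 50 after the start: ggtggaTGAGTAAtgcgtccAGGAAGcctg
Timp4: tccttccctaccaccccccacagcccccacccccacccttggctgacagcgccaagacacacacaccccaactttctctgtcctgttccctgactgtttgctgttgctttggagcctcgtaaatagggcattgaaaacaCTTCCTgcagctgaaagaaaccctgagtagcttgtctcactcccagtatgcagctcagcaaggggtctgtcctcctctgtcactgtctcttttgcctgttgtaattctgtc
Adamts1: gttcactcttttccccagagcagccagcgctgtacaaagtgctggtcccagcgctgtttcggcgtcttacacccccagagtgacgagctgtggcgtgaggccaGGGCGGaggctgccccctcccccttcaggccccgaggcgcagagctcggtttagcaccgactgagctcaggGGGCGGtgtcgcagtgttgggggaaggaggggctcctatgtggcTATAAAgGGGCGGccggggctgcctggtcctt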

How the data were processed

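RNA was measured in 3 infarct and 3 contralateral cortex samples grouped by their labels. The deposited values are raw read counts per Ensembl gene. Per the methods and processing notes, the authors prepared stranded mRNA libraries, used bcl2fastq 2.19, Trimmomatic 0.32 and STAR 2.5.2b on GRCm38, and counted with HTSeq, whose version and strand setting are not given in the sources used here. The 5 entries that name no gene, 26.6% to 34.3% of tallied reads, were left out.

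Counts were fitted with edgeR 4.0.16 in R 4.3.3 (filterByExpr, TMM scaling, robust glmQLFit, glmQLFTest, region only), with Benjamini-Hochberg adjustment over all 15554 tested genes. The procedure was tested on simulated data. SE is the log2 fold change over the root of its F statistic. Levels are scaled CPM divided by merged exon length in GENCODE M21, which held 45229 of 46078 identifiers. DESeq2 1.42.0, limma 3.58.1 and other scalings, filters and thresholds were alternatives, as was leaving out each library. Counting intervals cover counting error only.

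The members and gene lists were chosen with earlier results of these data known. All members are named. From each list the genes with the smallest *p* in each direction and the most abundant gene could be named, with further genes given by value. The promoter window was changed after its matches were seen. Values of some single genes are not reported here.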

Additional observations from a re-analysis of the deposited data

How the results depend on the processing

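There were 1429 comparisons with an alternative over 85 genes. Of these, 1383 kept their direction and side of the threshold, 18 gained a call, 23 lost a call and 5 changed sign. Dropping the fold threshold and testing against a fold change of 2 reused the main fold changes, so direction could not change there. The members upregulated were 9 in each alternative except the filter of at least 10 counts in every library, under which *Adamts12* was not tested and the number was 8. *Timp4* ranged from −0.85 to −0.22 without a library and was called in 0 alternatives, although without infarct 3 its edgeR adjusted *p* was 0.00822. Tested against a fold change of 2, 10 calls were lost: *Adamts3*, *Adamts6*, *Adamts13*, *Adamts16*, *Adamtsl2*, *Adamtsl5*, *Adam10*, *Adam19*, *Reck* and *Pcsk6*. The number of upregulated genes ranged from 2789 with that filter to 5324 without a fold threshold, and the number of downregulated genes from 2329 by glmTreat to 4787 without a fold threshold.

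The changes of sign were in genes with no call. *Hapln2* (0.06) was −0.04 by limma voom and −0.15 to 0.39 when libraries were left out, and *Adamts20* (0.25) was −0.09 to 0.62. The share of *Timp1* in the TIMP level was 17.3% in infarcts by the longest transcript, and by CPM without length 4.46% in infarcts and 0.588% in cortices, which follows from the lengths used.

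Deviations of same-numbered libraries correlated at −0.19, 0.101 and 0.001, and those of differently numbered libraries at −0.238 to 0.178. With 3 libraries per region this cannot settle whether samples were paired, and the labels do not say whether same-numbered samples share an animal. With the replicate block, 3945 genes were upregulated and 3222 downregulated by edgeR, and 4166 and 3364 by DESeq2, and 9 members were upregulated and 0 downregulated in both. Among the other genes examined, *Adamts16* was not called with the block in DESeq2 (adjusted *p* = 0.0639), and *Mmp28* was called with the block in both. Depth limits *Adamts7*, *Adamts12*, *Adamts13*, *Adamts14*, *Adamts18*, *Tfpi2*, *Mmp3*, *Mmp12* and *Mmp13*, which had few counts in the lower region.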
